A study of Mus musculus with 4 samples.

Results

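The genes described are the 8 ligands of the B7 family measured in mouse leukemia stem cells together with Tnfrsf14, which encodes the receptor HVEM, and Btla, which encodes a receptor that binds HVEM. They were chosen by name, 10 of the 27179 genes in the table, and all 10 had a row: Vtcn1, Cd80, Cd86, Cd274, Pdcd1lg2, Icosl, Cd276, Vsir, Tnfrsf14 and Btla. The study compared RNA of leukemia stem cells (LSCs, the cells thought to keep an acute myeloid leukemia going) between 2 libraries labelled B7-H4-null and 2 libraries labelled wildtype. All 4 came from bone marrow of a C57BL/6 model of acute myeloid leukemia (AML), and the cells were sorted for a yellow fluorescent protein together with Mac-1 and c-Kit. The labels leave unstated the oncogene behind the leukemia, the way the B7-H4 allele was made, the age of the mice and whether the host lacked B7-H4 too.

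B7 ligands are surface proteins that tell T cells whether to respond. CD80 and CD86 engage CD28, which activates T cells, and CTLA-4, which restrains them. ICOS ligand sustains helper T cells through ICOS, while PD-L1 and PD-L2 restrain T cells through PD-1, and VISTA, B7-H3 and B7-H4 mainly restrain them as well. HVEM is a receptor of the tumor necrosis factor family. It binds BTLA and CD160, which can inhibit T cells, and LIGHT (encoded by Tnfsf14) and lymphotoxin alpha, which signal through it. In the myeloid lineage VISTA is known for its high surface level on monocytes and neutrophils.

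Vsir was by far the most abundant of these transcripts, followed by Icosl, Btla and Tnfrsf14, and the gene of B7-H4 itself was hardly read in either genotype. No member passed the test between genotypes. Of the 6 members with enough signal to test, 4 had both B7-H4-null libraries below both wild type libraries (Vsir, Icosl, Cd274 and Cd80). Of all 12107 tested genes 28.0% did. Cd80 had enough signal in wild type alone, which favoured that side. For 1 member (Tnfrsf14) both were above, as for 16.0% of all tested genes, and Btla overlapped. Of the other 4, read too little to test, Pdcd1lg2 lay below, Vtcn1 and Cd276 above by single reads, and Cd86 overlapped. In bulk RNA, fewer cells of one type and less RNA per cell cannot be told apart.

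Levels are in RPKM (reads per gene length and library total), and genes can be set side by side. Totals behind this scaling were 9419425 and 10814448 reads for the B7-H4-null libraries and 10144166 and 9933947 reads for the wild type libraries. A single read on a 2 kb gene stood for 0.0462 to 0.0531 RPKM. Genes that reached 1 RPKM in 2 or more libraries were tested with limma on log2(RPKM + 1), 12107 genes in all, and 5 were called higher (0.0413%) and 7 lower (0.0578%) in B7-H4-null at an adjusted p under 0.05. Of the 10 members 6 were tested and 4 were not, namely Cd86, Pdcd1lg2, Vtcn1 and Cd276. An exact permutation test of 2 against 2 libraries cannot go below p = 0.333, two-sided, and none was used. Whether the replicates are separate mice is not stated, and p-values then measure only the spread between these libraries, which may be technical.

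Some lists of other genes were separated by genotype in the same libraries, although 0 of their genes were called. The summed level of 12 immediate early and stress genes was 12386 and 5932 RPKM in B7-H4-null against 2275 and 3540 RPKM in wild type, with all 12 higher in both B7-H4-null libraries. The 10 late neutrophil markers summed to 6733 and 8409 RPKM in B7-H4-null and to 23341 and 13701 RPKM in wild type, all 10 lower in both B7-H4-null libraries. Of the genes of the sort, Itgam and Itgb2, which encode Mac-1, averaged 71.4 ± 16.3 and 134.6 ± 16.3 RPKM in B7-H4-null and 100.5 ± 19.2 and 212.8 ± 0.197 RPKM in wild type (SD, n = 2 each). Of the myeloid genes in that list, Mpo (myeloperoxidase) had 2153 and 3388 RPKM in B7-H4-null and 1194 and 979.8 RPKM in wild type, and Spi1, the gene of PU.1, had 203 and 308.5 RPKM in B7-H4-null and 327.2 and 420.9 RPKM in wild type. Without overlap, 2 of the 9 genes stood above wild type and 5 below, where 16.0% and 28.0% of all tested genes did. Kit, the gene of c-Kit, named because the sort used it, had 11.02 and 9.37 RPKM in B7-H4-null against 24.0 and 7.19 RPKM in wild type, and the sorted markers were read in all 4 libraries. The part of these differences in the values below was not tested.

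**Figure D1:**
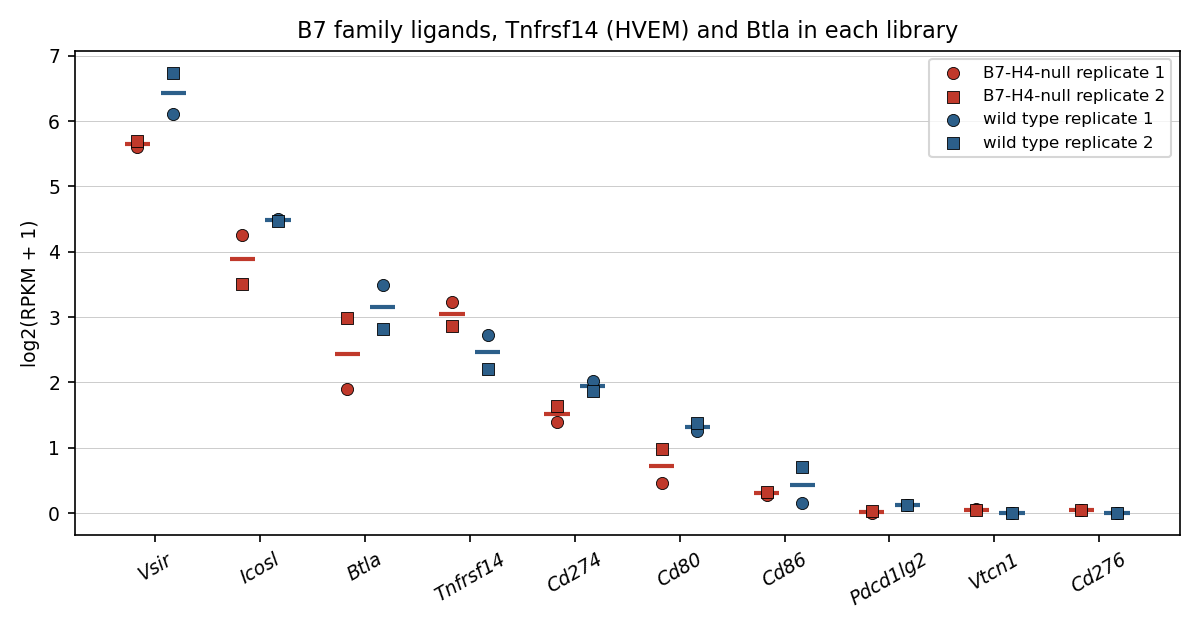
Level of each member on the log2(RPKM + 1) scale in the 4 libraries, ordered by mean level, with red for B7-H4-null and blue for wild type (circle, replicate 1; square, replicate 2; bar, mean of the 2 log2 values). Vsir stood highest in every library, and the red points lay below the blue ones for Vsir, Icosl, Cd274 and Cd80 and above them for Tnfrsf14.

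Promoters of members that differ most in level or in direction are shown because they set the hardly read Vtcn1 beside the abundant Vsir, and Tnfrsf14, the one tested member that lay higher, beside its partner Btla. Gene positions are on the same build as these sequences. Each sequence runs from 250 bases before to 50 bases after an annotated start, on the gene's strand, from RefSeq on GRCm38.p6, and capitals mark the motif matches found.
Vtcn1, chr3:100825209-100825508, plus strand: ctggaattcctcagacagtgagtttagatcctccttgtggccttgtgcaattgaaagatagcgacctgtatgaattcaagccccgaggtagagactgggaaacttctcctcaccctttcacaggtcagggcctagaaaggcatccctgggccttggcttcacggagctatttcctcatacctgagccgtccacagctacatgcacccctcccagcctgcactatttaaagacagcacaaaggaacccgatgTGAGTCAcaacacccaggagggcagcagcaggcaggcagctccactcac
Vsir, chr10:60346601-60346900, plus strand: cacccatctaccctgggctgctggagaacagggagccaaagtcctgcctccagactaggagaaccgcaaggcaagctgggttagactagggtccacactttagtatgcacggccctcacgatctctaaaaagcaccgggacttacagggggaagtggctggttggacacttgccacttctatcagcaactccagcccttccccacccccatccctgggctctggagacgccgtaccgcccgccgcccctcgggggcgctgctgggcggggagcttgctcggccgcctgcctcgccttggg
Tnfrsf14, chr4:154928028-154928327, minus strand: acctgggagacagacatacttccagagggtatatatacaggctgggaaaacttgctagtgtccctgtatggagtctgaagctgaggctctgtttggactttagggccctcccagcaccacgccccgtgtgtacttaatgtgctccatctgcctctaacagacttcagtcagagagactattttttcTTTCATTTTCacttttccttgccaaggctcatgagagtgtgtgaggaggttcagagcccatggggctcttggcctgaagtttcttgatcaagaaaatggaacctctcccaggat
Btla, chr16:45224087-45224386, plus strand: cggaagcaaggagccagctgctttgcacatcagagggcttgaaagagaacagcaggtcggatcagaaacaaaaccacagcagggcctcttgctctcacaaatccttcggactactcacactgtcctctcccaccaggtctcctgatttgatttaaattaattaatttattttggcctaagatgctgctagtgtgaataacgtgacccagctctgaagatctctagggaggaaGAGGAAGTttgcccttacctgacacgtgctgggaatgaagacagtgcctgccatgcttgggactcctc

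The promoter table had 9 of the 10 members. Their 300 bases were searched on both strands for the interferon-stimulated element (GAAA, any 2 bases, GAAA), the gamma-activated site TTCNNNGAA, the NF-kB form GGGA, any 2 bases, TTCC and its narrower form with CT in the middle (contained in the first), the AP-1 site TGANTCA and the PU.1 core GAGGAAGT. Of the 9, 4 held a match, each to 1 motif. Tnfrsf14 held the interferon-stimulated element on the opposite strand, beginning 64 bases before the start, as 3.44% of all 32851 promoters of the table did on either strand. Btla held the PU.1 core 18 bases before its start (3.20% of promoters). Vtcn1 held an AP-1 site that began at base 2 counted from the start as base 1, and Cd80 held one 42 bases before its own (7.81% of promoters). Neither NF-kB form (1.47% and 0.155% of promoters) nor the gamma-activated site (8.30%) was found in a member's window. These are letter matches and say nothing of binding. The windows of Tnfrsf14, Btla, Cd80 and Cd274 lie inside the extent the annotation gives those genes and not at its edge.

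The members also differed in CpG content of that window. The median promoter held 7 CpG dinucleotides, and 4 of the 9 members held more. Cd276 had 39, Icosl 26, and Vsir and Cd274 15 each. Vtcn1 and Btla had 5, Cd80 and Pdcd1lg2 3 and Tnfrsf14 2. Number of CpG and level did not run together throughout, since Cd276 had the most CpG and the lowest mean level, while Vsir and Icosl had many and were the most abundant.

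Vtcn1 (gene ID 242122, chromosome 3, 100825459 to 100896922) encodes B7-H4, the ligand named by the genotype. It had 0.0405 and 0.0353 RPKM in B7-H4-null, 1 read in each, and 0 reads in both wild type libraries. With 0 reads over the wild type libraries, a level of up to 0.0570 RPKM (3 reads over both) is allowed, and this limit covers counting error only. The labels could therefore not be checked on the transcript. Cd276 (chromosome 9, 58524300 to 58555033), the gene of B7-H3, gave the same picture, with 0.0332 and 0.0289 RPKM in B7-H4-null, 1 read in each, and 0 reads in wild type.

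Vsir (gene ID 74048, chromosome 10, 60346851 to 60430294) encodes VISTA, which acts both as a ligand and as a receptor on T cells. It had 47.8 and 50.9 RPKM in B7-H4-null, 4853 reads in all, and 68.1 and 105.9 RPKM in wild type, 8446 reads. The B7-H4-null libraries were close together and both below the wild type libraries, which lay far apart. Its level exceeded that of 93.0% and 92.5% of all genes in the B7-H4-null libraries and of 95.02% and 96.9% in the wild type libraries. The log2 difference was −0.77 ± 0.294 (SE, unadjusted p = 0.0356, limma adjusted p = 0.37), the lowest p among the members. It was the 1 member of 6 with an unadjusted p under 0.05 in the lower direction, where 7.20% of all genes were, and 0 of 6 were in the higher direction, where 5.05% of all genes were. Under median-ratio scaling those shares of all genes were 5.28% lower and 6.48% higher. The difference was −0.46 without wild type replicate 2.

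Icosl (gene ID 50723, chromosome 10, 78069368 to 78079525), the ICOS ligand, had 18.1 and 10.4 RPKM in B7-H4-null and 21.6 and 21.1 RPKM in wild type. Both B7-H4-null libraries lay below, replicate 2 far more than replicate 1. The log2 difference of −0.60 ± 0.310 (limma adjusted p = 0.498) became −0.97 when B7-H4-null replicate 1 was left out and −0.23 when replicate 2 was.

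Vsir and Icosl together made up 96.6% and 94.7% of the summed RPKM of the 8 B7 ligands in B7-H4-null and 95.1% and 96.2% in wild type. Vsir alone gave 70.1% and 78.6% in B7-H4-null and 72.2% and 80.2% in wild type, with overlap between genotypes. The sum of the 8 ligands was 66.5 ± 2.42 RPKM in B7-H4-null and 113.2 ± 26.7 RPKM in wild type (SD, n = 2 each), without overlap (68.2 and 64.8 against 94.3 and 132.1 RPKM). The share of Vsir and Icosl overlapped between genotypes while the sum did not.

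Cd274 and Pdcd1lg2, both on chromosome 19, encode the PD-1 ligands PD-L1 and PD-L2. Cd274 (gene ID 60533, 29362107 to 29388095) had 1.63 and 2.11 RPKM in B7-H4-null and 3.06 and 2.66 RPKM in wild type, from 139 reads in B7-H4-null and 209 in wild type. All B7-H4-null values lay below the wild type values, with a log2 difference of −0.43 ± 0.266 (limma adjusted p = 0.569). Pdcd1lg2 (29410919 to 29472927) had 0 and 0.0271 RPKM in B7-H4-null and 0.0866 and 0.0884 RPKM in wild type. That is 1 read in B7-H4-null and 6 in wild type. The depth-scaled ratio was 0.165, and its exact 95% binomial interval ran over 0.0036 to 1.36 for counting error only. At these read numbers a difference in PD-L2 transcript was not detectable. The length of Pdcd1lg2 matched no GENCODE length, so its true reads could be a whole multiple of these and the interval narrower.

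Cd80 and Cd86 on chromosome 16 encode the ligands shared by CD28 and CTLA-4. Cd80 (gene ID 12519, 38457430 to 38495958) had 0.374 and 0.979 RPKM in B7-H4-null and 1.39 and 1.60 RPKM in wild type, from 24 reads in B7-H4-null and 51 in wild type. Its genotypes did not overlap, and the log2 difference was −0.60 ± 0.304 (limma adjusted p = 0.491), or −0.33 without B7-H4-null replicate 1 and −1.22 with voom on reads. Cd80 entered the test through its wild type values alone, so that a lower value in B7-H4-null was built into its entry. Cd86 (36568956 to 36666158) had 0.209 and 0.255 RPKM in B7-H4-null and 0.116 and 0.634 RPKM in wild type. The wild type libraries enclosed the B7-H4-null ones, and 12 reads in B7-H4-null and 19 in wild type gave a depth-scaled ratio of 0.627, for which the exact 95% binomial interval was 0.277 to 1.36.

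Tnfrsf14 (gene ID 230979, chromosome 4, 154918487 to 154928620), the gene of HVEM, lay on the other side. It had 8.44 and 6.32 RPKM in B7-H4-null and 5.63 and 3.61 RPKM in wild type, from 132 reads in B7-H4-null and 83 in wild type. The length of Tnfrsf14 matched no GENCODE length, so its true reads could be a whole multiple of these. Both B7-H4-null values were higher, with a mean of 7.38 ± 1.502 RPKM in B7-H4-null and 4.62 ± 1.43 RPKM in wild type (SD, n = 2 each). The log2 difference of 0.59 ± 0.298 did not pass (limma adjusted p = 0.489), and was 0.33 without wild type replicate 2.

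Btla (gene ID 208154, chromosome 16, 45223705 to 45252895) encodes an inhibitory receptor best known from lymphocytes and dendritic cells. It had 2.72 and 6.89 RPKM in B7-H4-null and 10.2 and 6.07 RPKM in wild type. B7-H4-null replicate 2 lay above wild type replicate 2, so the genotypes overlapped. The log2 difference of −0.72 ± 0.422 (limma adjusted p = 0.556) became −0.17 when B7-H4-null replicate 1 was left out and −1.26 when replicate 2 was, so its size rested on single libraries. Of 10 B cell markers, Pax5, a factor that defines the B lineage, was at 0 in every library. Cd79b had 58.7 and 60.7 RPKM in B7-H4-null and 35.4 and 45.5 RPKM in wild type, and Ighm had 61.1 and 68.7 RPKM in B7-H4-null and 21.4 and 9.99 RPKM in wild type. Vpreb1, of the precursor B cell receptor, had 1.66 and 2.05 RPKM in B7-H4-null and 0 and 0.131 RPKM in wild type, and Cd79a, the partner of Cd79b, lay the other way with 0.16 and 0.557 RPKM in B7-H4-null and 0.966 and 0.607 RPKM in wild type. The list summed to 122 and 133 RPKM in B7-H4-null and 58.2 and 57.0 RPKM in wild type, and the part of this in the values of Btla was not tested. Of 11 dendritic cell markers 8 stayed under 1 RPKM in every library, and their sums overlapped, 16.5 and 21.9 RPKM in B7-H4-null and 15.9 and 25.8 RPKM in wild type.

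**Figure D2:**
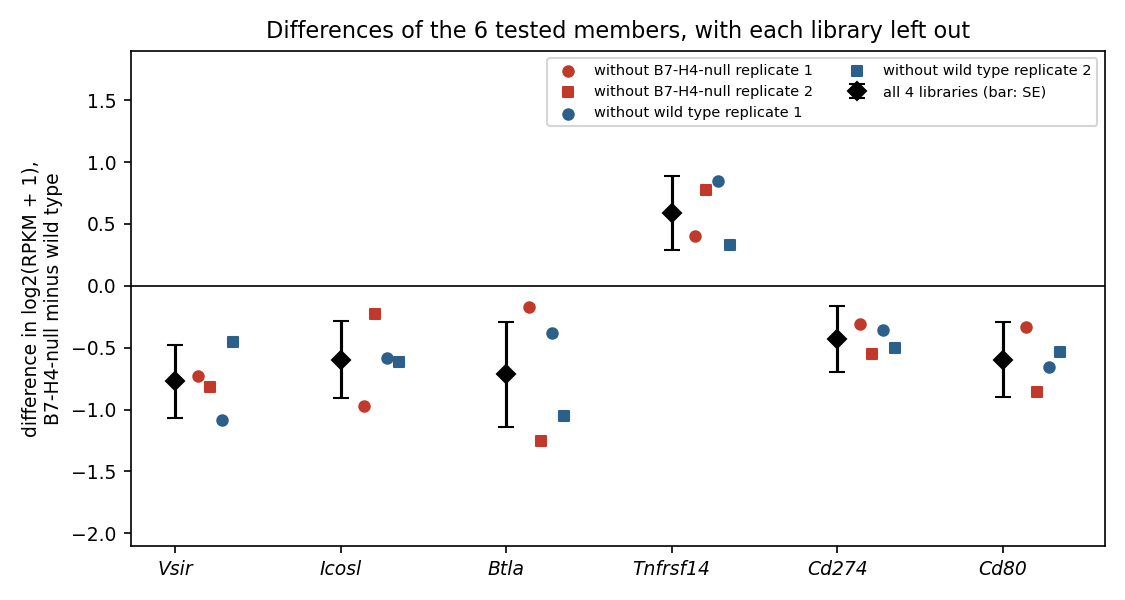
Difference in log2(RPKM + 1), B7-H4-null minus wild type, for the 6 tested members: black diamonds with SE bars use all 4 libraries, coloured points leave out 1 library each. The sign held for all 6 members in every such fit, but only for Btla could it have changed, since the genotypes of the others did not overlap. Tnfrsf14 alone lay above 0, and Btla and Icosl moved most with single B7-H4-null libraries.

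Cd80 counts among the 4 members below, though its entry into the test favoured that side. Without it, 3 of 5 members lay below without overlap and 1 of 5 above. Under median-ratio scaling the members' counts were the same, while 22.0% of all tested genes lay below and 22.1% above, so that the lean of all genes to the lower side depended on the scaling. The median log2 difference was −0.60 for the 6 members, −0.60 for the 5 without Cd80 and −0.09 for all 12107 genes, of which 58.5% were below 0. Under median-ratio scaling it was −0.52 for the 6 members and 0.0066 for all genes. With 6 genes chosen by name this is a description, and nothing particular to the family follows from it.

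In order of mean level over the 4 libraries, the members were Vsir (68.2 RPKM), Icosl (17.8), Btla (6.47), Tnfrsf14 (6.00), Cd274 (2.36), Cd80 (1.09), Cd86 (0.304), Pdcd1lg2 (0.0505), Vtcn1 (0.0189) and Cd276 (0.0155). Vsir was above Icosl, and Icosl above Btla, in 4 of 4 libraries. Btla and Tnfrsf14 could not be ordered, since their ranges overlapped and Btla was higher in 3 of 4 libraries only. The exception was B7-H4-null replicate 1, and the ratio of Tnfrsf14 to Btla was 3.10 and 0.917 in B7-H4-null and 0.552 and 0.594 in wild type. Tnfrsf14 stood above Cd274, Cd274 above Cd80 and Cd80 above Cd86 in every library, though the ranges of Cd80 and Cd86 met. The 3 lowest genes could not be ordered at their read numbers.

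The genes of the T cell receptors CD28, CTLA-4, ICOS and PD-1 were nearly unread in the sorted cells. Of 12 receptor and partner genes, 9 stayed under 1 RPKM in every library and 2, Selplg and Tnfsf14, were tested, with 0 called in either direction. Cd28, Ctla4, Icos, Pdcd1, Cd160 and Lta are named after their values were seen. Pdcd1, the gene of PD-1, had 1 read in B7-H4-null and 0 in wild type, and Ctla4 had 2 reads in B7-H4-null and 3 in wild type. Cd28 had 27 reads in B7-H4-null (0.443 and 0.193 RPKM) and 3 in wild type (0.0457 and 0.0233 RPKM). Cd5, a receptor of T cells and some B cells, had 0.564 and 0.626 RPKM in B7-H4-null against 0.191 and 0.0487 RPKM in wild type. T and NK cell markers summed to 2.51 and 2.71 RPKM in B7-H4-null and 3.19 and 5.33 RPKM in wild type, and 13 of the 14 stayed under 1 RPKM. Cd247, a chain of the T cell receptor complex, carried the separation, and the other 13 summed to 1.45 and 1.35 RPKM in B7-H4-null and 1.01 and 2.81 RPKM in wild type, with overlap. Selplg, which encodes a selectin ligand that also binds VISTA, was abundant at 75.6 and 100.1 RPKM in B7-H4-null and 61.2 and 89.7 RPKM in wild type, with overlap. Trem2, a receptor of macrophages, had 0.488 and 3.48 RPKM in B7-H4-null and 0.181 and 0.833 RPKM in wild type, and overlapped too.

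Tnfsf14 (gene ID 50930), which encodes LIGHT, the activating ligand of HVEM, separated the genotypes by more than its replicates. It had 3.60 and 4.43 RPKM in B7-H4-null (152 reads) and 11.2 and 11.5 RPKM in wild type (424 reads). Both B7-H4-null libraries lay far below both wild type libraries, and the mean in B7-H4-null was 0.353 of that in wild type. The log2 difference was −1.31 ± 0.248 (limma adjusted p = 0.154), which did not pass, and over 12 alternative settings it lay between −1.50 and −1.19 with adjusted p from 0.0901 to 0.61. The RPKM ratio of Tnfrsf14 to Tnfsf14 was 2.35 and 1.43 in B7-H4-null and 0.501 and 0.314 in wild type. The Tnfrsf14 transcript thus stood above that of Tnfsf14 in both B7-H4-null libraries and below it in both wild type libraries. Protein of receptor and ligand was not measured, and neither gene passed the test. The remaining HVEM ligands were low, Cd160 at 0.362 and 0.35 RPKM in B7-H4-null and 0.336 and 0.152 RPKM in wild type, and Lta at most 0.23 RPKM.

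**Figure D3:**
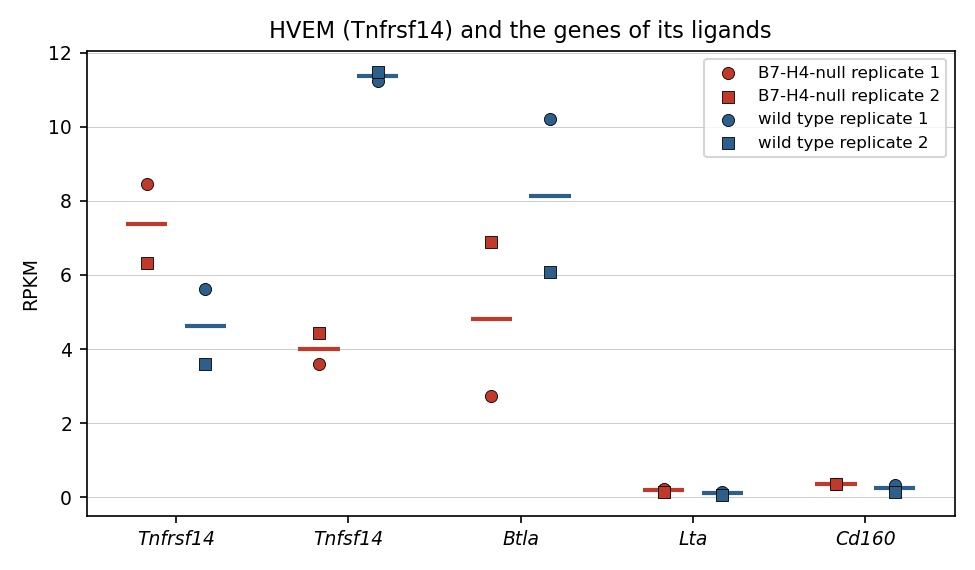
RPKM of Tnfrsf14 (HVEM) and of the genes of its ligands in each library, B7-H4-null in red and wild type in blue (circle, replicate 1; square, replicate 2; bar, mean). Both B7-H4-null libraries stood above wild type for Tnfrsf14 and below it for Tnfsf14, Btla overlapped, and Lta and Cd160 stayed under 1 RPKM.

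Relatives of the B7 family were scarce. Of 10 butyrophilin and other B7-like genes in the table, 8 stayed under 1 RPKM in every library and 3 were at 0 throughout. The 2 tested, Cd200r1 (the receptor of CD200) and Btnl9, had 4.15 and 2.64 RPKM and 2.46 and 0.976 RPKM in B7-H4-null, against 3.02 and 5.48 RPKM and 5.20 and 2.66 RPKM in wild type. Btnl9 lay lower in both B7-H4-null libraries (limma adjusted p = 0.444), and Cd200r1 overlapped.

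The most abundant of the other checkpoint genes were read at levels above those of most B7 ligands. Of 17 matched genes 11 were tested and 0 were called. Both B7-H4-null libraries stood above both wild type libraries for 3 of them and below for 3, with a median log2 difference of −0.27. Of all tested genes 16.0% stood above and 28.0% below. Cd47, the signal that restrains phagocytosis, had 216.8 and 338 RPKM in B7-H4-null and 242.9 and 334.1 RPKM in wild type. Lgals9, which encodes galectin-9, had 89.4 and 112.9 RPKM in B7-H4-null and 125 and 113.5 RPKM in wild type, the nearest pair of libraries differing by little. Sirpa, the receptor of CD47, averaged 55.9 ± 14.6 RPKM in B7-H4-null and 83.0 ± 16.8 RPKM in wild type, and Cd48, a ligand of CD244, 49.0 ± 4.10 RPKM in B7-H4-null and 32.5 ± 8.62 RPKM in wild type (SD, n = 2 each; limma adjusted p = 0.501 and 0.455). Mean levels of Sirpa and Vsir over the 4 libraries were 69.4 and 68.2 RPKM.

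The costimulatory genes of the tumor necrosis factor family were represented by 3 tested receptors. For each of them both B7-H4-null libraries were below both wild type libraries, as for 28.0% of all tested genes, and 0 were called. Ltbr, which shares LIGHT with HVEM, had 43.5 and 67.8 RPKM in B7-H4-null and 67.9 and 109.5 RPKM in wild type, so the middle pair was almost equal. Tnfrsf1a and Tnfrsf1b, the receptors of tumor necrosis factor, averaged 51.5 ± 20.5 and 12.1 ± 6.01 RPKM in B7-H4-null and 89.0 ± 14.8 and 21.3 ± 3.57 RPKM in wild type (SD, n = 2 each; limma adjusted p = 0.398 and 0.422). HVEM, of the same receptor family, lay the other way. Tnfsf13b, the gene of the B cell survival factor BAFF, had 0.125 and 0.327 RPKM in B7-H4-null and 1.22 and 0.889 RPKM in wild type and was not tested. Tnfsf9, also untested and named after its values were seen, stood higher in B7-H4-null. It had 1.38 and 0.827 RPKM there and 0.321 and 0 RPKM in wild type.

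Genes that govern PD-L1 and other B7 ligands lay on both sides. Of 23 regulators 21 were tested and 0 called, with 3 above and 7 below in both B7-H4-null libraries and 11 overlapping. Over all tested genes 16.0% lay above and 28.0% below, so these counts say nothing particular about the regulators. The most abundant were Ifngr1, a chain of the interferon gamma receptor, with 219.6 ± 95.9 RPKM in B7-H4-null and 238.1 ± 19.0 RPKM in wild type, and Nfkb1, an NF-kB subunit, with 61.2 ± 4.45 RPKM in B7-H4-null and 71.1 ± 3.36 RPKM in wild type (SD, n = 2 each). Irf8, a factor of the myeloid lineage, overlapped between genotypes. Stat3, a transcription factor of cytokine signalling, had 32.2 and 50.8 RPKM in B7-H4-null and 60.4 and 86.3 RPKM in wild type (log2 difference −0.82 ± 0.325, limma adjusted p = 0.383). Cmtm6, which protects PD-L1 protein from degradation, and Socs1, an inhibitor of interferon signalling, were named after their values were seen. Cmtm6 had 28.0 and 48.4 RPKM in B7-H4-null and 48.6 and 87.0 RPKM in wild type, and Socs1 had 43.2 and 13.3 RPKM in B7-H4-null and 8.40 and 5.61 RPKM in wild type (limma adjusted p = 0.471 and 0.322).

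**Figure D4:**
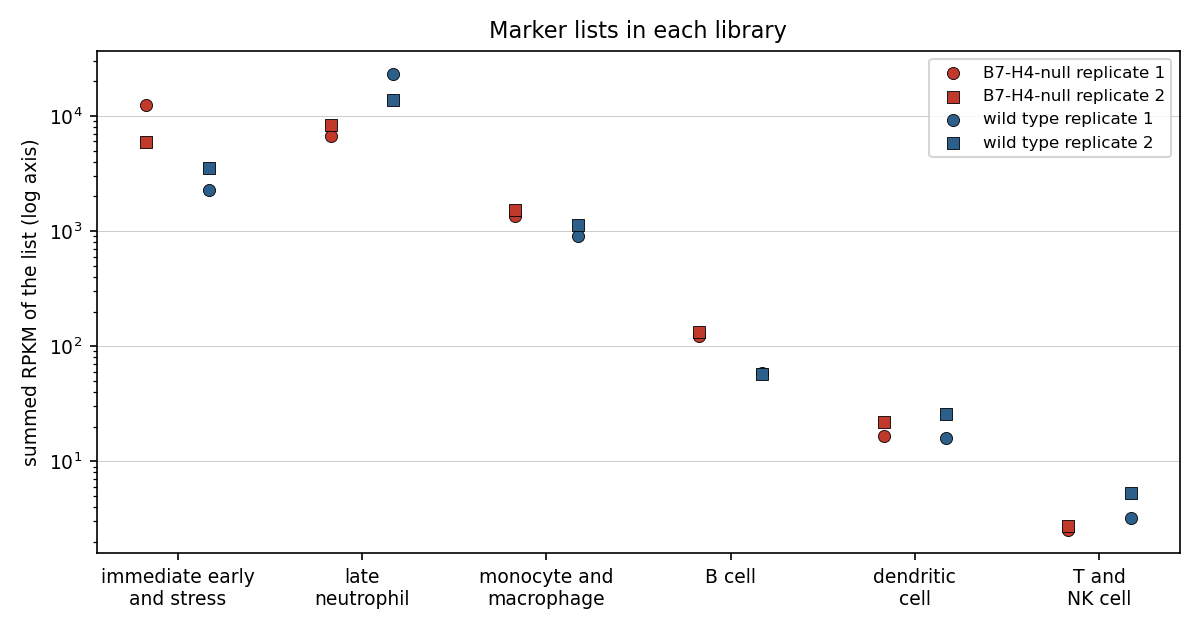
Summed RPKM of 6 lists of marker genes in each library on a log axis, B7-H4-null in red and wild type in blue (circle, replicate 1; square, replicate 2). In both B7-H4-null libraries the immediate early, monocyte and B cell sums lay above wild type and the late neutrophil and T and NK cell sums below, and the dendritic cell sums overlapped.

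Of markers of cells that carry B7 ligands, the 11 monocyte and macrophage genes summed to 1352 and 1527 RPKM in B7-H4-null and 907 and 1138 RPKM in wild type, mostly from Ly6c2. Without Ly6c2 the other 10 summed to 151.4 and 68.7 RPKM in B7-H4-null and 63.6 and 58.7 RPKM in wild type. The list held genes on both sides: without overlap, Ly6c2 and Cx3cr1 were among those above wild type, while Mrc1, C1qa and C1qc, untested for low values, stood below. Cx3cr1 reached 1 RPKM in B7-H4-null alone, and these names other than Ly6c2 were chosen after their values were seen. The late neutrophil list, lower in B7-H4-null, lay on the same side as Vsir, Icosl, Cd274 and Cd80, and the immediate early list on the same side as Tnfrsf14. Erythroid and stromal lists held only 1 and 2 tested genes. Their part in the members' values was not tested.

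For the 3 most abundant members the genes with the nearest profile over the 4 libraries were sought by the root mean square difference of centred log2(RPKM + 1). For Vsir they were Scand1, Armc7 and Ssh2, at 0.0217, 0.0243 and 0.0288, with 47 genes within 0.1. For Icosl they were Arid5b, Slc7a8 and Tor4a, at 0.026, 0.0376 and 0.0396, with 30 genes within 0.1. For Btla they were Slc16a6, Cyb561 and Glce, at 0.054, 0.107 and 0.12, with 1 gene within 0.1. The distance is absolute and also depends on how far a gene swings between libraries. These counts therefore do not show whose profile is rarer. Slc16a6, for example, had 10.01 and 21.7 RPKM in B7-H4-null and 32.9 and 21.5 RPKM in wild type, following the overlap of Btla. With 4 libraries many profiles look alike.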

How the data were processed

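RNA was sequenced from 2 B7-H4-null and 2 wild type libraries made with the Illumina TruSeq RNA v2 kit, per the labels' protocols. TopHat2 2.0.12 and build GRCm38 are named in the submitters' processing notes. The counting program and the annotation are unnamed, and strand use is not stated: reads of overlapping antisense genes cannot be told apart.

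The authors deposited RPKM values per Entrez gene ID, and this unit was taken from the values. Symbols came from the NCBI table of GRCm38.p6 for 25275 of 27179 IDs. Low values are whole multiples of a step, which gave each library's total and each gene's length. Reads came out whole to within 0.001 for 14604 of the 14608 genes above 0 in every library. Where a smaller length was possible, the multiple within 1% of a GENCODE M21 length was taken. For Cd80 the reads rest on that choice.

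Genotypes were compared with limma 3.58.1 (R 4.3.3) on log2(RPKM + 1), genotype as the only term, with a mean-variance trend, two-sided, Benjamini-Hochberg adjustment at 0.05 over genes that reached 1 RPKM in 2 or more libraries. Differences on this scale understate the change of low genes. Alternatives were a pseudocount of 0.1, no filter, a filter at 5 RPKM, median-ratio and quantile scaling, the replicate block, no trend, voom on recovered reads and leaving out each library. Intervals and floors of 3 reads cover counting error only.

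Named were all members, up to 4 genes per list by mean RPKM, defining markers of other cell types at 0, and others where marked. Members and lists were chosen with earlier results of these data known. Of 164 other list entries, Hhla2 and Lilrb3 were not matched.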

Additional observations from a re-analysis of the deposited data

How the results depend on the processing

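No member passed under any alternative run, and the sign of all 6 tested members held in each. The adjusted p of the members ranged from 0.186 to 0.99973 over 11 or 12 settings each. The median log2 difference of the tested members, −0.60, lay between −0.71 and −0.32 (−0.60 without Cd80, an alternative chosen after seeing the data) and moved by less than the spread between replicates (0.347). Median-ratio scaling kept all 10 members in the order of mean level. The number of genes called over the whole table moved more. It was 12 as reported, 0 of 20517 with no filter on low values (at an unadjusted p under 0.05, 799 higher and 1088 lower), and 0 to 56 when a library was left out. It was 0 without either B7-H4-null library, 56 when wild type replicate 1 was left out and 29 when replicate 2 was. With either B7-H4-null library left out, 489 higher and 448 lower (replicate 1) or 619 higher and 857 lower (replicate 2) had an unadjusted p under 0.05. With the replicate block 21 genes were called, none of them a member. The numbers are not said to pair the libraries, and the deviations of same-numbered libraries had a correlation of 0.247 across genes. The cause of these moves was not tested. Depth limits Vtcn1, Cd276 and Pdcd1lg2, with 0 to 3 reads a library.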
